A study of Mus musculus with 22 samples.

Results

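Lymphomas of Eμ-Myc mice that retained high transcript levels of the MHC class II genes were compared with lymphomas in which those levels were low. The 13 lymphoma arrays of a series of 22 were ranked by the class II score, the mean log2 intensity of H2-Aa, H2-Ab1, H2-Eb1 and Cd74. Each gene was read from 1 probe set, the one of highest mean over the 22 arrays. The 6 highest lymphomas form the class II high group, the 6 lowest form the class II low group, and the middle lymphoma was left out. The groups were thus chosen by the measured values of these 4 genes, which are given without a test.

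Each of the 22 samples was hybridised to 1 Affymetrix MOE430A array, and all mice were on the C57Bl/6 background. Eμ-Myc mice carry a Myc transgene driven by the immunoglobulin heavy chain enhancer, which directs Myc to B lineage cells, and every lymphoma and premalignant sample carries it. The lymphomas came from 13 independent mice, and each is named here by its replicate number (lymphoma 1 to lymphoma 13). The other arrays are 4 of B220+ B cells from wild type mice and 5 of B220+ premalignant B cells from transgenic mice, taken from littermates aged 4 to 6 weeks. The lymphoma labels carry the same age, while the design text gives that age for the other samples. B cells were taken from bone marrow or spleen with magnetic beads against B220 or IgM, and the labels do not say which tissue or which antibody served for a given array. Cd79a, which encodes a signalling chain of the B cell receptor, was high on every lymphoma array, between log2 10.75 and 12.08. The probe set of Pax5, a B lineage transcription factor, lay below log2 4 on all 13. Whether this probe set detects Pax5 in B cells was not tested, so its low level does not show that the lymphomas lack Pax5.

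MHC class II molecules present peptides from the endosomal route to CD4+ T cells, and B cells express them constitutively. H2-Aa and H2-Ab1 encode the alpha and beta chains of I-A, H2-Eb1 encodes the beta chain of I-E, and Cd74 encodes the invariant chain that fills the groove and guides the complex to endosomes. There H2-DM, built from H2-DMa and a DMb chain, exchanges the last fragment of the invariant chain for peptide, and H2-O restrains H2-DM in B cells. Transcription of these genes depends on the coactivator CIITA, which acts on proteins bound to the conserved X and Y boxes of their promoters: the RFX complex, CREB and NF-Y.

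The promoter sequences of the class II genes that were measured are shown to give the elements these genes share. Of 9 class II genes looked up, 5 had a window that was used from the RefSeq table (GRCm38.p6). A window spans 250 bases before to 50 bases after the annotated start. The 120 bases before the start are printed 5′ to 3′ on the gene's strand, with TGATTGG, a form of the Y box, in capitals. GCAAC, part of the X box, is also in capitals where it lies 15 to 40 bases before TGATTGG.
H2-Aa: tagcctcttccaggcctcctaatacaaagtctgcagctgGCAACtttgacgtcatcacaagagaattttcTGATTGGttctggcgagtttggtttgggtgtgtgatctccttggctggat
H2-Eb1: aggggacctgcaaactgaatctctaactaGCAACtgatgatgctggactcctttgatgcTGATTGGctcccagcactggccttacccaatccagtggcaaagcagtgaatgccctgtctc
H2-Oa: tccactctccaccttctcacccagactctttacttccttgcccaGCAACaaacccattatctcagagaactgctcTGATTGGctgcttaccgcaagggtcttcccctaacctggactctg
H2-DMb2: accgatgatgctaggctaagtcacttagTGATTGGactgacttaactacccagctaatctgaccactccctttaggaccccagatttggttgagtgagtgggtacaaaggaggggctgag

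The printed stretch of H2-Aa lies at chr17:34287824-34287943 on the minus strand. On the plus strand lie those of H2-Eb1 at chr17:34305747-34305866, H2-Oa at chr17:34092259-34092378 and H2-DMb2 at chr17:34145129-34145248. TGATTGG, searched on both strands, began 50, 61, 45 and 92 bases before the start of H2-Aa, H2-Eb1, H2-Oa and H2-DMb2. In H2-Aa, H2-Eb1 and H2-Oa it was preceded by GCAAC, with 26, 25 and 26 bases between them. Of all 32851 windows in the table, 7.82% held TGATTGG, 35.2% held GCAAC and 0.256% held GCAAC followed by TGATTGG at 15 to 40 bases. Neither window of H2-DMa held TGATTGG, and no window was used for H2-Ab1, Cd74, H2-Ea and Ciita. The look-up skipped the chromosome that carries Cd74, so a window of Cd74 could not have been counted. The letters searched were chosen after the windows were seen, and a match is not evidence that a factor binds there.

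The lymphomas formed a graded series of class II levels, all below those of the premalignant cells. The score was 12.57 ± 0.17 (SD, n = 4) in wild type arrays and 11.92 ± 0.12 (SD, n = 5) in premalignant arrays, whose lowest value was 11.79. The highest lymphoma reached 11.37 and the lowest 4.38, a range of 6.99 on the log2 scale. From the highest down, the high group held lymphomas 13, 11, 3, 7, 12 and 8, with scores of 11.37, 10.88, 10.74, 10.39, 9.93 and 9.63. The middle lymphoma, lymphoma 6, had a score of 9.61. The low group held lymphomas 2, 4, 9, 10, 5 and 1, with scores of 9.24, 9.08, 8.98, 8.09, 6.35 and 4.38. The edge of the high group was thus only 0.011 above the middle lymphoma, and that of the low group was 0.38 below it. The widest gaps were inside the low group, 1.74 between lymphomas 10 and 5 and 1.97 between lymphomas 5 and 1.

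**Figure D1:**
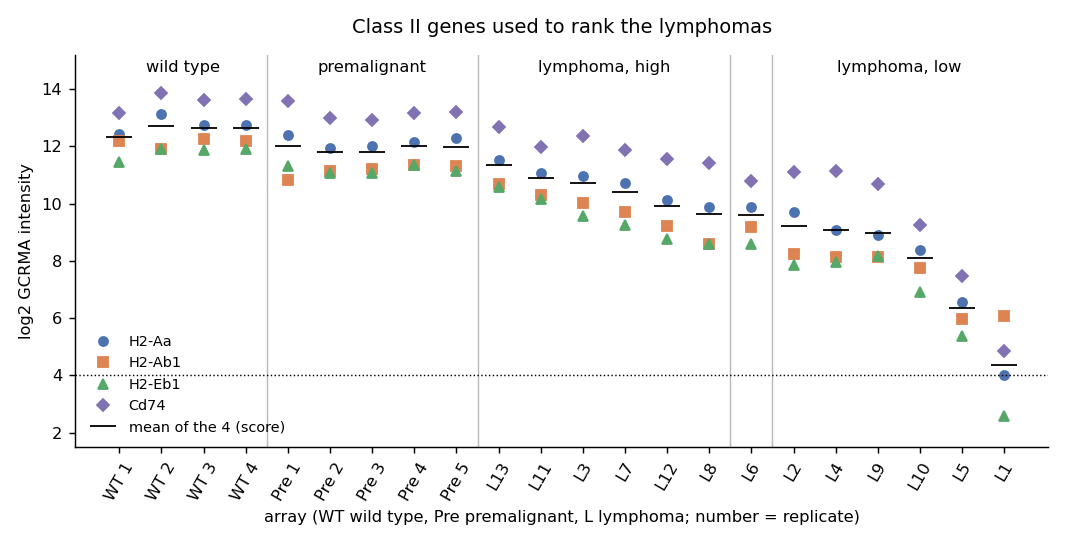
Log2 GCRMA intensity of H2-Aa, H2-Ab1, H2-Eb1 and Cd74 on each of the 22 arrays, with the class II score as a black bar, lymphomas in order of the score and the dotted line at log2 4. The wild type and premalignant scores lie at 11.79 or above, the lymphomas fall gradually to 8.09, and lymphomas 5 and 1 stand apart at 6.35 and 4.38.

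Over the 13 lymphomas H2-Aa spanned 7.51, H2-Eb1 8.00 and Cd74 7.83 on the log2 scale, and H2-Ab1 a narrower 4.74. The level of H2-Aa ran from 9.88 to 11.54 (median 10.85) in the high group and from 4.02 to 9.71 (median 8.65) in the low group, against a mean of 12.77 in wild type and 12.17 in premalignant arrays. H2-Ab1 ran from 8.59 to 10.70 in the high group and from 5.96 to 8.25 in the low group, and H2-Eb1 from 8.59 to 10.57 and from 2.57 to 8.17. Cd74 ran from 11.43 to 12.67 in the high group and from 4.84 to 11.14 in the low group. The ratio of the group means was 7.67-fold for H2-Aa, 5.20-fold for H2-Ab1, 8.06-fold for H2-Eb1 and 7.43-fold for Cd74. The other probe set of H2-Aa gave a log2 difference of 3.06, and the other probe sets of H2-Ab1 gave 2.49 and 2.40. In these bulk samples, fewer class II positive cells and less class II RNA per cell cannot be told apart.

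Among 6063 other genes, none passed the comparison of the 6 high with the 6 low lymphomas (percent called 0, limma with Benjamini-Hochberg adjusted p under 0.05), and the smallest adjusted p was 0.248. At an unadjusted limma p under 0.05, 334 genes (5.51%) differed, of which 122 (2.01%) were higher and 212 (3.5%) lower in the high group. The median log2 difference over all genes was -0.04, and 42.6% of genes had a positive difference. In 14 genes (0.231%) the 6 high and the 6 low arrays did not overlap, 7 in each direction (0.115% and 0.115%). The similarity of arrays over all genes was close within and between the groups. Pearson's r averaged 0.922 over the 15 pairs within the high group, 0.926 over the 15 pairs within the low group and 0.924 over the 36 pairs between them. In simulated data with the spread of these arrays, 70% of genes changed 2-fold and 98% of those changed 4-fold were recovered. There the noise was normal and drawn for each gene on its own, and the planted changes themselves ease the adjustment. The rates hold for that setting and do not give the share that would be found among these lymphomas.

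**Figure D2:**
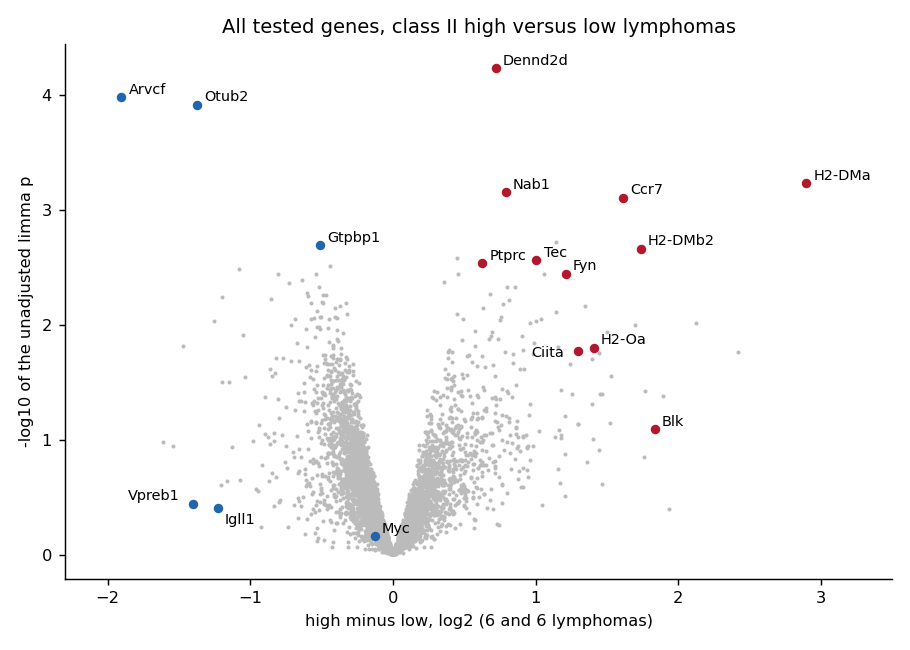
Log2 difference of high minus low lymphomas (x axis) against -log10 of the unadjusted limma p (y axis) for the 6063 genes tested, with 17 genes named and coloured red where higher and blue where lower in the high group. H2-DMa has the largest positive difference, 2.90, and no gene passes after adjustment.

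The genes of the class II loading machinery had the largest median difference of any described list with 6 and 6 lymphomas, 1.57. Without the 3 lowest lymphomas their median was 0.918, and those of salivary gland (-1.18) and neutrophil genes (-0.924) were larger in size. H2-DMa had the largest positive difference of all genes tested with 6 and 6 lymphomas. H2-DMa, the alpha chain of the peptide exchanger, had values of 7.45, 7.89, 7.13, 6.43, 5.77 and 5.76 in the high group, in order of the score. In the low group it had 5.71, 4.97, 4.96, 2.86, 2.51 and 2.06. The groups did not overlap, and the 3 lymphomas of lowest score were all below log2 4, the level used here as a floor. The difference was 2.90 (SE 0.643, limma adjusted p = 0.794, unadjusted p = 0.00059), at least 6.68-fold with the low mean set to the floor. Wild type and premalignant arrays averaged 9.91 and 8.92, above every lymphoma.

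H2-DMb2, a beta chain of the same complex, ran from 4.21 to 6.87 (median 5.87) in the high group and from 3.03 to 4.97 (median 4.17) in the low group. The groups overlapped by 1 high array, lymphoma 12. The difference was 1.74 (SE 0.457, limma adjusted p = 0.859), a ratio of 3.33-fold, and wild type and premalignant arrays averaged 10.06 and 9.49. H2-Oa, the alpha chain of the inhibitor H2-O, ran from 4.22 to 6.71 in the high group and from 2.91 to 5.71 in the low group. Its groups overlapped widely, and the difference was 1.41 (SE 0.508, limma adjusted p = 0.859). H2-Ea was flat at a low level, 4.98 in the high and 5.02 in the low group. It was as low in wild type arrays, at 4.94, where H2-DMa, H2-DMb2 and H2-Oa averaged 9.91, 10.06 and 9.98. Its flat level thus shows nothing about class II differences among the lymphomas. Of these 4 genes, 3 had an unadjusted limma p under 0.05 and a higher level in the high group, against 2.01% of all genes. Their median difference was 1.57, against -0.04 over all genes, and 0.92 without the 3 lowest lymphomas.

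Ciita, the coactivator of class II genes, was the other class II gene with a difference of more than 1. In order of the score its values were 7.18, 4.73, 5.86, 5.44, 4.09 and 3.90 in the high group and 3.84, 4.07, 4.67, 3.83, 3.47 and 3.53 in the low group. The highest lymphoma had a level as high as the wild type mean of 7.01, while 2 of the 6 high lymphomas lay within the range of the low group. The difference was 1.30 (SE 0.474, limma adjusted p = 0.859), at least 2.30-fold, and the premalignant mean was 5.18. The other 5 measured genes of class II transcription, Rfx5, Nfya, Nfyb, Nfyc and Creb1, encode proteins of the X and Y box complexes and had differences between -0.14 and 0.14 (smallest unadjusted limma p = 0.344).

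**Figure D3:**
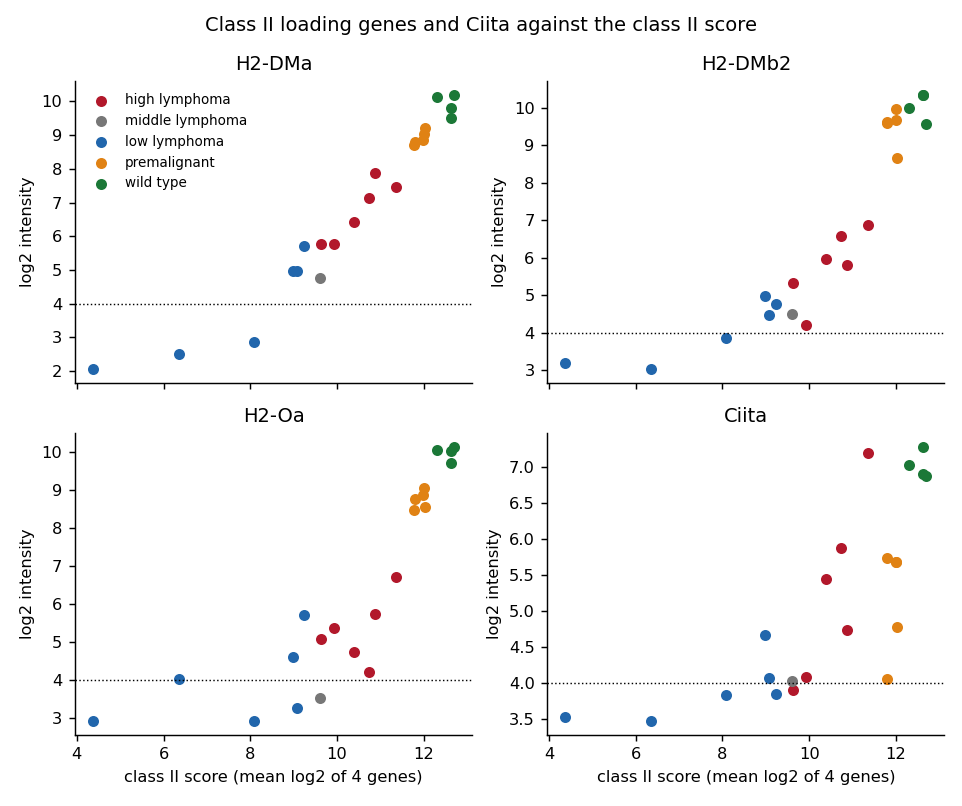
Log2 intensity of H2-DMa, H2-DMb2, H2-Oa and Ciita (y axes) against the class II score (x axis) on all 22 arrays, coloured by group, with the dotted line at log2 4. H2-DMa falls with the score from 7.89 to 2.06 across the lymphomas, and Ciita is above 5 in 3 lymphomas only, those with values of 7.18, 5.86 and 5.44.

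The score was also used as a continuous covariate over all 13 lymphomas, so that the order within the groups counted. In that fit 109 genes (1.8%) passed at a limma adjusted p under 0.05, 44 (0.726%) higher and 65 (1.07%) lower with rising class II score. H2-DMa rose by 0.89 per log2 unit of the score (adjusted p = 0.0019) and H2-DMb2 rose by 0.53 (adjusted p = 0.011), while H2-Oa (slope 0.40, adjusted p = 0.115) and Ciita (slope 0.38, adjusted p = 0.092) did not pass. Pearson's r of H2-DMa with the score was 0.927 and Spearman's rho 0.962 over the 13 lymphomas, and r was 0.942 without lymphomas 1 and 5. Both permutation p-values were 1e-05, the smallest that 100000 permutations can give.

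Most of these calls rested on the lymphoma of lowest score. Without lymphoma 1, 3 genes (0.0495%) passed: H2-DMa (limma adjusted p = 0.0012), H2-DMb2 (adjusted p = 0.020) and Tec (adjusted p = 0.017). Lymphoma 1 had the highest or lowest level of all 13 in 100 of the 109 genes. The share over all genes was not counted, and a fit on a score that ends at lymphoma 1 favours such genes. Without lymphomas 1 and 5 H2-DMa alone passed, with an adjusted p of 0.0052. Without lymphoma 7 the count was 70, and without lymphoma 11 it was 166. Over all genes, lymphoma 1 had a mean Pearson's r of 0.912 with the other low lymphomas, which averaged 0.933 among themselves.

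**Figure D4:**
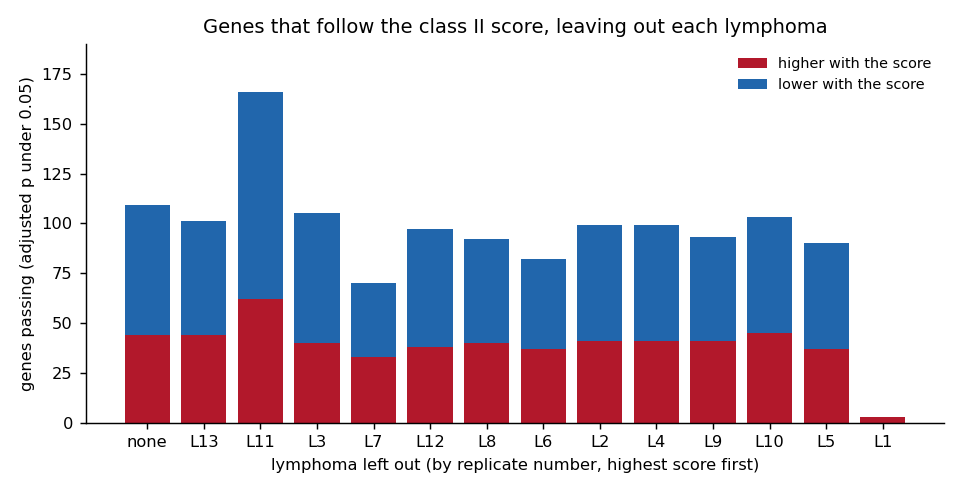
Number of genes passing at a limma adjusted p under 0.05 when the class II score is a covariate, with all 13 lymphomas (none left out) and leaving out each in turn, split by direction. The count is 109 with all lymphomas and lies between 70 and 166 without any single one except lymphoma 1, without which it is 3.

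The 20 genes of smallest p in the comparison of 6 with 6, none of which passed, held 12 that were higher and 8 that were lower in the high group. Dennd2d, an exchange factor for Rab GTPases, had the smallest p (5.9e-05, limma adjusted p = 0.248). It lay between 4.04 and 4.57 in the high group and between 3.42 and 3.81 in the low group, close to the floor in both. Arvcf, a catenin of cell junctions, had a high group mean of 3.97 and a low group mean of 5.87, a log2 difference of -1.90 (SE 0.348, limma adjusted p = 0.248). Its lowest levels within the low group, 4.78 and 5.28, were those of lymphomas 5 and 1, so that it did not follow the score within that group. Arvcf passed in a fit over all 22 arrays (limma adjusted p = 0.0082), as did H2-DMa (adjusted p = 0.045). Otub2, a deubiquitinase, was between 5.94 and 6.56 in the high group and between 6.88 and 8.34 in the low group (difference -1.37, SE 0.255, limma adjusted p = 0.248).

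Several of the higher genes are known from lymphocytes. Ccr7, the chemokine receptor that leads lymphocytes to lymph nodes, ran from 3.95 to 6.35 in the high group and from 2.65 to 4.32 in the low group, against 7.98 in wild type and 7.15 in premalignant arrays. Its difference was 1.61 (SE 0.371, limma adjusted p = 0.794). It passed with the score as covariate (limma adjusted p = 0.032), but not without lymphoma 1 (adjusted p = 0.269). Tec, a kinase downstream of antigen receptors, ran from 6.26 to 7.60 in the high group and from 5.37 to 6.62 in the low group (difference 1.01, limma adjusted p = 0.859). Tec rose by 0.33 per unit of the score (adjusted p = 0.0045). Stk17b, a kinase of lymphocytes, was higher by 1.14 and Fyn, a Src family kinase, by 1.21, and Nab1, a corepressor of EGR factors, was higher by 0.79 with no overlap of the groups. Of the lower genes, Pfkm, the muscle form of phosphofructokinase, differed by -1.08 and Eme1, a subunit of a DNA endonuclease, by -0.64.

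Ptprc encodes CD45, of which B220 is the B cell form, and so touches on the antibody used for the isolation. It lay between 9.29 and 9.61 in the high group and between 8.07 and 9.26 in the low group, without overlap, and averaged 11.77 in wild type and 10.96 in premalignant arrays. The difference was 0.63 (SE 0.171, limma adjusted p = 0.859), and with the score as covariate Ptprc passed (slope 0.19, adjusted p = 0.014). Without lymphoma 1 its adjusted p was 0.332. Whether the antibody or tissue of isolation had a part in the class II order was not tested.

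The B cell genes showed a small tilt towards the high group. Of 18 measured genes of mature B cells 6 had an unadjusted limma p under 0.05 and were higher in the high group, and none was lower, against 2.01% and 3.5% of all genes. Their median log2 difference was 0.53, but 0.14 without the 3 lowest lymphomas. Cd22, an inhibitory coreceptor, had means of 9.70 and 8.93, Cd53, a tetraspanin of leukocytes, 9.24 and 8.38, and Ltb, lymphotoxin beta, 4.91 and 3.38. The level of Ltb was 11.13 in wild type arrays, far above either group. Of 19 genes of B cell receptor signalling 3 were higher at that p and none lower (median 0.26), and 4 rose with the score as covariate, against 0.726% of all genes. None of these 4 passed without lymphoma 1. Prkcb, a protein kinase C of that pathway, was one of them (slope 0.37, limma adjusted p = 0.0035). Of 24 B lineage transcription factors 3 were higher and none lower (median 0.12), among them Mef2c with means of 6.98 and 5.84 and Foxo1 with means of 6.76 and 5.78. Without the 3 lowest lymphomas the median of the transcription factors was 0.00.

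Cd79a and Ighm, genes of the core of the B cell receptor, did not differ clearly between the class II groups. Cd79a averaged 11.48 in both groups, with a difference of -0.01 (SE 0.276), and Ighm, the mu heavy chain, averaged 11.65 and 11.78 (difference -0.14, SE 0.392). Cd79a was lowest in lymphomas 5 and 1, at 10.78 and 10.75, next to 10.87 in lymphoma 11 of the high group. Myc averaged 9.59 in the high and 9.71 in the low group (difference -0.13, SE 0.315), against 7.04 in wild type and 9.97 in premalignant arrays. The sign of these 3 differences changed with the processing. The MOE430A probe set of Myc does not show which copy a transcript came from.

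Lymphomas 5 and 1 shared low levels of several B cell genes. They were the lowest pair of the 13 lymphomas in 180 genes (2.97%) and the highest pair in 312 (5.15%). Blk, a Src family kinase of B cells, was at 2.88 and 2.76 in these lymphomas and between 5.36 and 9.33 in the other 11, while wild type arrays averaged 9.86. Cd2, an adhesion receptor of lymphocytes, was at 3.13 and 2.61 there, against 5.22 to 8.09 in the others. Prkcb was at 6.77 and 6.35, against 7.84 to 8.80, and Arhgap45, a GTPase activating protein, was at 6.52 and 6.51, against 7.67 to 8.33. The group difference of Blk, 1.83, became -0.22 without the 3 lowest lymphomas, and that of Arhgap45, 0.57, became -0.05. Both rose with the score over 13 lymphomas (limma adjusted p = 0.010 and 0.0079), and both had an adjusted p of 0.873 without lymphomas 1 and 5. Blk was chosen after its values were seen.

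The stage markers of early B cells differed between the 2 lowest lymphomas. Vpreb1, part of the surrogate light chain of the pre-B cell receptor, was at 10.62 in lymphoma 1, at 2.32 in lymphoma 5 and at 8.67 in lymphoma 10. In the high group it was at 6.36 in lymphoma 7 and 4.55 in lymphoma 3, and it was at 2.50 or below in the other 8 lymphomas, as in wild type (2.48) and premalignant (2.48) arrays. Igll1, the other part of the surrogate light chain, followed the same order with 12.22 in lymphoma 1, 8.60 in lymphoma 10 and 7.21 in lymphoma 7. Rag1, a subunit of the V(D)J recombinase, had another pattern. It was between 8.09 and 8.97 in lymphomas 3, 6, 7 and 10, and at 3.10 in lymphoma 1. Rag1 was chosen after its values were seen. High surrogate light chain thus occurred in both class II groups, and the 14 measured pro-B and pre-B genes had a median difference of -0.02, with none at an unadjusted limma p under 0.05 in either direction. Without the 3 lowest lymphomas, among them lymphomas 1 and 10, that median was 0.45. The group differences of Vpreb1 (-1.40, SE 1.48) and Igll1 (-1.23, SE 1.39) were smaller than their errors.

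Other genes of antigen presentation had median differences of 0.14 to 0.33, above the -0.04 of all genes. The counts that follow are of genes higher at an unadjusted limma p under 0.05, where 2.01% of all genes stood. Of 17 endosomal proteases and processing genes 1 was higher, Ctss, which encodes the protease that trims the invariant chain, with means of 9.84 and 9.26 and a median of 0.14 for the list. Of 16 class I presentation genes 2 were higher, H2-M3 with means of 5.86 and 5.06 and Tapbp, the tapasin that bridges class I to the peptide transporter, with 8.40 and 7.92 (list median 0.21). Of 19 interferon response genes 1 was higher, the GTPase gene Gbp3, with means of 4.72 and 4.02 (list median 0.23). All 7 measured costimulation genes had positive differences (median 0.33), as did 42.6% of all genes, with 1 at that p, the adhesion ligand gene Icam1, and Cd86, a ligand of CD28, had means of 5.04 and 4.33. None of the genes on these lists passed with the score as covariate.

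Growth genes leaned the other way by small amounts. Of 25 mitosis genes 4 were lower in the high group at an unadjusted limma p under 0.05 and none higher, against 3.5% and 2.01% of all genes. A negative difference was found in 22 of the 25 (median -0.14, and -0.28 without the 3 lowest lymphomas), against 3481 of all 6063 genes. With the score as covariate no mitosis gene passed, and their median slope was -0.012, close to the -0.011 of all genes. Ccnb2, a mitotic cyclin, had means of 7.22 and 7.72, and Ube2c, a ubiquitin-conjugating enzyme of the anaphase-promoting complex, 8.65 and 9.04. Of 28 DNA replication genes 26 had a negative difference (median -0.12), but none reached that p, and the median was 0.01 without the 3 lowest lymphomas. Of 27 ribosome biogenesis genes 2 were lower (median -0.15), Nhp2, a protein of H/ACA ribonucleoproteins, and Rrp9, a protein of the U3 ribonucleoprotein. Both passed with the score as covariate (limma adjusted p = 0.012 and 0.023), but not without lymphoma 1 (adjusted p = 0.242 and 0.480). The other lists, all with a median between -0.03 and 0.32, were the Myc network, p53 targets and ARF, the BCL2 family, NF-kB, immunoglobulin, adhesion and homing, and lysosome and autophagy.

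**Figure D5:**
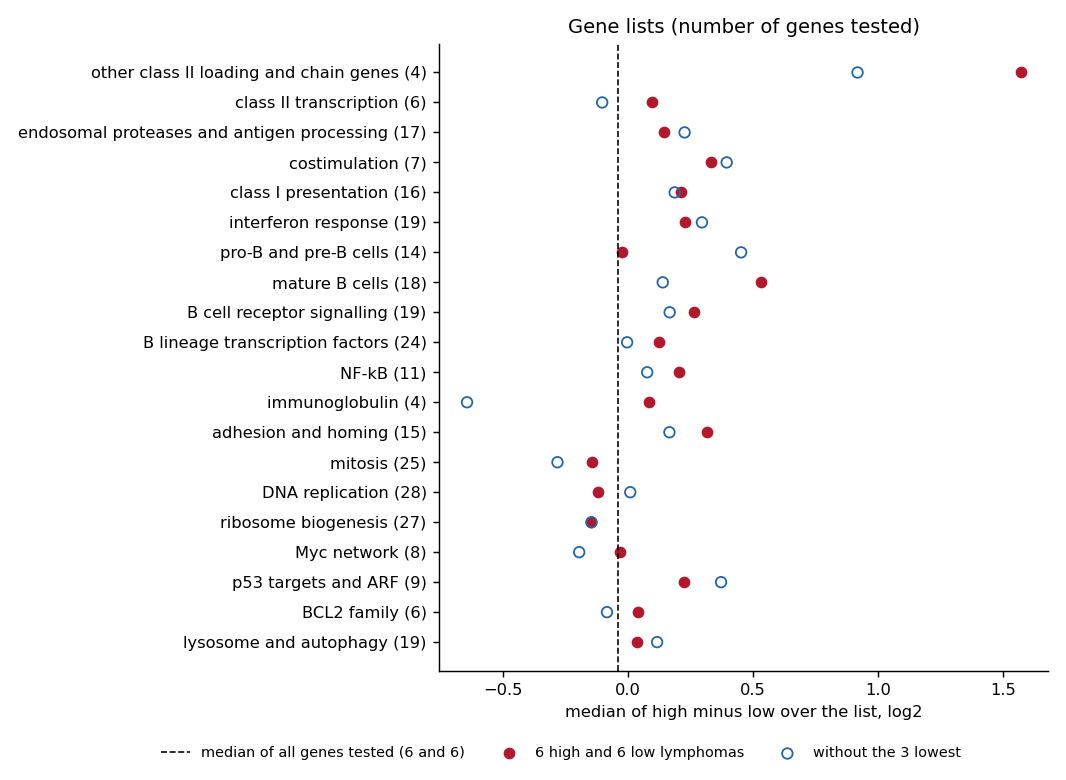
Median log2 difference of high minus low lymphomas over each pathway gene list, with the number of genes tested in parentheses, for all 12 lymphomas (filled) and without the 3 lowest (open), beside the median of all genes, -0.04 (dashed line). The class II loading list lies at 1.57 and 0.92, and the other pathway lists run from -0.64 (immunoglobulin, without the 3 lowest) to 0.53 (mature B cells).

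The genes whose levels lay closest to the score over the 13 lymphomas were H2-DMa, Sash3, Prkcb, Tec and Arhgap45, with Pearson's r from 0.927 down to 0.900. Sash3 encodes an adaptor protein of lymphocytes. The most negative were Nhp2, Cbwd1, Impdh1, Mphosph6 and Pycrl, with r from -0.933 to -0.911. Impdh1 encodes an enzyme of guanine nucleotide synthesis. These r values describe the 13 lymphomas, and without lymphomas 1 and 5 that of Arhgap45 was 0.54 and that of Pycrl -0.56. Of the 44 genes that rose with the score, 31 had a premalignant mean above that of the high lymphomas, against 41.1% of all genes. Of the 65 that fell, 41 had one below it, against 58.9% of all genes.

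Markers of other cells were measured on the same arrays. Of 25 macrophage markers 5 lay below log2 4 in all lymphomas, and their summed linear level was 3611 to 15367 in the high and 2235 to 6798 in the low group. Of the 19 macrophage genes tested 15 were higher in the high group, against 42.6% of all genes, and none had an unadjusted limma p under 0.05. The median difference of the macrophage genes was 0.42, and 0.79 without the 3 lowest lymphomas, beside 0.92 for the class II loading genes in that setting. The mean of the macrophage list did not follow the score over the 13 lymphomas (Pearson's r -0.02, Spearman's rho 0.24), and r was 0.35 without lymphomas 1 and 5. C1qa, a complement gene of macrophages, had means of 8.30 and 7.56, and Apoe, an apolipoprotein gene of macrophages, 9.36 and 8.54. Of 13 dendritic cell markers 9 lay below log2 4 in all lymphomas, among them Zbtb46, Xcr1 and Batf3, and the summed level was 111 to 337 in the high and 110 to 160 in the low group. Of 12 T cell markers 7 lay below log2 4 in all lymphomas, among them Cd3d, Cd3e and Cd3g. The summed T cell level was 145 to 306 in the high and 89.1 to 354 in the low group, and the list's mean had a Pearson's r of 0.68 with the score, 0.41 without lymphomas 1 and 5. Both genes of the T cell list that were tested had a positive difference, Cd2 with means of 6.80 and 5.28 and Cd4 with means of 4.01 and 2.80. Cd4 was at 6.72 in lymphoma 3 and 5.92 in lymphoma 7, and below log2 4 in the rest of the high group. In lymphoma 6, which was left out, Cd4 was at 6.50. Cd2 averaged 8.87 in the B220+ B cells of wild type mice and 8.56 in premalignant B cells. It therefore does not mark T cells alone, nor do the list's sum and mean, which include it. Cd2 rose with the score (limma adjusted p = 0.014), with an adjusted p of 0.325 without lymphoma 1. All 6 neutrophil genes tested had a negative difference (median -0.63, and -0.92 without the 3 lowest lymphomas), as did 3481 of all 6063 genes. The mean of the neutrophil list had a Pearson's r of 0.08 with the score, and -0.57 without lymphomas 1 and 5. The summed level of the neutrophil markers was 146 to 2050 in the high and 119 to 6504 in the low group. Salivary gland markers summed to 97.7 to 9807 in the high and 96.9 to 12487 in the low group, so that single lymphomas of both groups held such RNA. Of the 6 salivary gland genes tested 5 had a negative difference, as did 3481 of all 6063 genes. Their median was -0.48, and -1.18 without the 3 lowest lymphomas, but 0.13 without lymphoma 1. The part of these cells in the results, among them macrophages and dendritic cells, which can express class II genes, was not tested. The beta-actin 3′ minus 5′ difference, a sign of RNA quality, was 1.78 ± 0.40 (SD, n = 6) in the high and 2.06 ± 0.36 (SD, n = 6) in the low group. Its Pearson's r with the score was -0.40 (permutation p = 0.173), Spearman's rho was -0.47 (permutation p = 0.106), and r was -0.38 without lymphomas 1 and 5. With this difference as a covariate no gene passed either. The beta-actin difference was 0.77 ± 0.10 (SD, n = 4) in wild type and 0.70 ± 0.09 (SD, n = 5) in premalignant arrays, below every lymphoma. Levels of lymphomas set beside those of wild type or premalignant arrays thus come from arrays that differ in this measure. The part of RNA quality in those comparisons was not tested.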

How the data were processed

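RNA was labelled with biotin by the one-cycle method, per the labels' protocols, and the authors deposited GCRMA intensities on a linear scale, per the submitters' processing notes. The version of GCRMA is not given in the sources used. Log2 was taken here. Probe sets with 1 gene symbol numbered 20380 of 22690 (89.8%), 691 had several, 1555 none and 64 were controls. Those above log2 4 on at least 4 of the 13 lymphoma arrays were kept, which left 6063 genes, each read from its probe set of highest mean over 22 arrays. A fold that involves a group mean under log2 4 was computed with that mean raised to 4 and is a lower bound.

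Groups were compared with limma 3.58.1 in R 4.3.3 (lmFit and eBayes, two-sided), with Benjamini-Hochberg adjustment over all genes. The fits were tested on simulated data of 6063 genes, some of them changed on purpose, with 10 false calls among the genes left unchanged. The number of arrays limits the precision. The groups, the gene lists (625 entries, 542 matched to 1 symbol) and the rule for named genes were chosen with earlier results of these data known. That rule took the measured class II genes, the 20 of smallest p, up to 2 of smallest p per list, the 5 most positive and 5 most negative correlations with the score, and Myc, Cd79a, Ighm, Vpreb1 and Igll1; Blk, Rag1 and Cnn2 were added after their values were seen. Lists were described by counts and medians and not tested. The alternatives covered the grouping, score, filter, normalization, probe sets, spread, RNA quality and leaving out arrays; those that leave out the 3 lowest lymphomas, leave out arrays from the fit on the score, use its rank or average 2 lymphomas were chosen after seeing the data.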

Additional observations from a re-analysis of the deposited data

Results flagged for a closer look

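In 3 of 120 checks of a gene within a group of 6, 1 lymphoma stood farther from the other 5 than a Dixon test at the 95% level allows, and chance alone marks about 1 in 20. H2-Ea was at 4.78 in lymphoma 11, below the rest of the high group. Tmem209 was at 6.10 in lymphoma 2, above the rest of the low group. Mphosph6, one of the genes most negatively correlated with the class II score, was at 7.37 in lymphoma 1, above the rest of the low group.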

How the results depend on the processing

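No gene passed with 6 against 6 lymphomas, and none did when any 1 of the 12 was left out (0 to 0, with 207 to 482 at an unadjusted limma p under 0.05). The count was 109 with the score as a covariate, 2 in 1 fit over 22 arrays (Arvcf and H2-DMa), and 1 (Arvcf) both with the score taken without Cd74 and with the score from all probe sets, each of which regrouped 1 array. With the score as a covariate the count ranged from 3 to 166 on leaving out 1 lymphoma, was 1 without the 2 lowest and was 6 with the rank of the score (Ccr7, Cnn2, Dennd2d, H2-DMa, H2-DMb2 and Tec). When arrays were centred on their spike-in controls, the median of all genes went from -0.04 to -0.16, and the medians of class II transcription, immunoglobulin, the BCL2 family, and lysosome and autophagy then fell below 0.

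Of 55 named genes, 45 kept their sign in every setting run, and 10 reversed in some. Without the 3 lowest lymphomas the difference was -0.22 for Blk, 0.99 for Vpreb1, 0.96 for Igll1 and -0.051 for Arhgap45. Leaving out the highest as well gave -0.57, 1.19, 1.17 and -0.085 for these, -0.036 for Cd22 and 0.0054 for Myc. Cd79a was 0.097 with the score as a covariate, 0.024 with 4 against 4, 0.028 with 7 against 6, 0.00060 with each of the other scores, 0.016 with median centring and 0.087 with array weights. Ighm was 0.074 with the score as a covariate, 0.16 as the mean over probe sets and 0.079 with lymphomas 3 and 7 counted as 1. Rag1 was -0.0049 with the beta-actin difference as a covariate. Leaving out 1 lymphoma gave -0.055 to 0.0047 for H2-Ea, -0.36 to 0.056 for Myc, -0.15 to 0.12 for Cd79a, -0.31 to 0.10 for Ighm and -1.72 to 0.020 for Igll1. The cause of these changes was not tested.

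Lymphomas 3 and 7 were the most alike (Pearson's r 0.982 over all genes, the next pair 0.967), and counting them as 1 array left 0 genes passing and 233 at an unadjusted limma p under 0.05. No paired analysis was possible because the comparison lies within 1 group of lymphomas from independent mice, whose numbers only name the arrays.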
